A study of Mus musculus with 9 samples.

Results

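The genes of the platelet-derived growth factor (PDGF) receptors and ligands were followed through 6 alveolar rhabdomyosarcomas, tumours with features of skeletal muscle cells, and 3 wild-type skeletal muscles of the mouse. Every sample was hybridised to 1 Affymetrix array. The members are all probe sets whose single gene symbol in the platform annotation is Pdgfra, Pdgfrb, Pdgfa, Pdgfb, Pdgfc or Pdgfrl. Of these 6 genes, 5 had probe sets, 2 each, so that 5 of 12393 measured genes, with 10 of the 22626 probe sets tested, are described here. Pdgfrl was not analysed here. The labels call the tumours alveolar rhabdomyosarcoma and the muscles wild-type and control. They give no genotype for the tumours, no strain, age or treatment for either group, no muscle of origin, and no statement that the samples came from separate animals, so p-values speak only for the spread among these arrays, which may be technical. Each array gave 1 MAS5 signal per probe set, a linear brightness in arbitrary units.

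The receptors PDGFRA and PDGFRB are cell-surface tyrosine kinases that pair when a dimeric PDGF ligand binds, and then signal through the RAS-MAPK and PI3-kinase pathways. PDGF-A and PDGF-C act mainly through PDGFRA, PDGF-B acts through both receptors, and PDGF-D acts mainly through PDGFRB. In skeletal muscle PDGFRA marks mesenchymal progenitor cells between the fibres, and PDGFRB marks the pericytes of small vessels, which are recruited by PDGF-B from endothelial cells. In human alveolar rhabdomyosarcoma the PAX3-FOXO1 fusion protein has been reported to activate the PDGFRA gene. All samples are bulk tissue, in which fewer cells of a type and less RNA per cell cannot be told apart.

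The labelled tissues carried different marker sets. Of 8 measured genes of adult skeletal muscle 7 were lower in tumours, and the summed signal of the 8 lay between 1067 and 68225 in tumours and between 154790 and 224937 in muscles. The upper end in tumours was that of tumour 1, against at most 12037 in the others. Ncam1, an adhesion molecule of developing muscle, was higher in tumours by 4.39 ± 0.39 on the log2 scale (± SE). It belongs to a list of 10 genes of the myogenic lineage and its tumours, of which 2 were higher and 8 were not called. Among those not called, Myod1 and Myog differed by 0.34 and 0.36, and Pax3 and Pax7 by -1.22 and -0.57. Muscle 1 and muscle 3 were deposited on a lower scale than the other 7 arrays and were multiplied by 1.70 and 3.55 to the common trimmed mean. All signals below are after this step. The hybridisation control cre gave 32500 on tumour 1 and 26649 on tumour 4, against 5345 to 13348 on the other arrays. Log2 levels of tumour 1 had a mean Pearson correlation across genes of 0.737 with the other tumours, the lowest of the 6, against 0.716 to 0.737 between each muscle and the tumours, as a description with no test. The 3'/5' ratio of Gapdh, a sign of RNA integrity, ran from 1.93 to 9.39 in tumours and from 1.68 to 57.2 in muscles. The same ratio of Actb went the other way, from 3.35 to 6.78 in tumours and from 1.87 to 4.35 in muscles. The spiked control dap gave 116 to 950 in tumours and 2316 to 5844 in muscles. The part of these array differences in the results below was not tested beyond the left-out arrays given there. The median difference between tumours and muscles over all probe sets was 0.11 on the log2 scale, and 0.75 without the rescaling.

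Among the receptors and ligands, Pdgfc was higher in tumours, and neither Pdgfrb, Pdgfa nor Pdgfb passed the test. Pdgfra varied most from tumour to tumour, but by only 1 of its 2 probe sets. Of the 10 probe sets 2 were called higher, both of Pdgfc, and 0 were called lower (limma, Benjamini-Hochberg adjusted p under 0.05 over all probe sets). At an unadjusted p under 0.05 the counts were also 2 and 0. Over the whole array 15.4% of probe sets were called, 7.88% of them higher and 7.53% lower as shares of all probe sets. The median difference of the 10 was 0.13, close to that of all probe sets. By 1 probe set per gene, 1 of the 5 genes was called, against 17.2% of all genes, so the share called was near the background by either count.

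**Figure D1:**
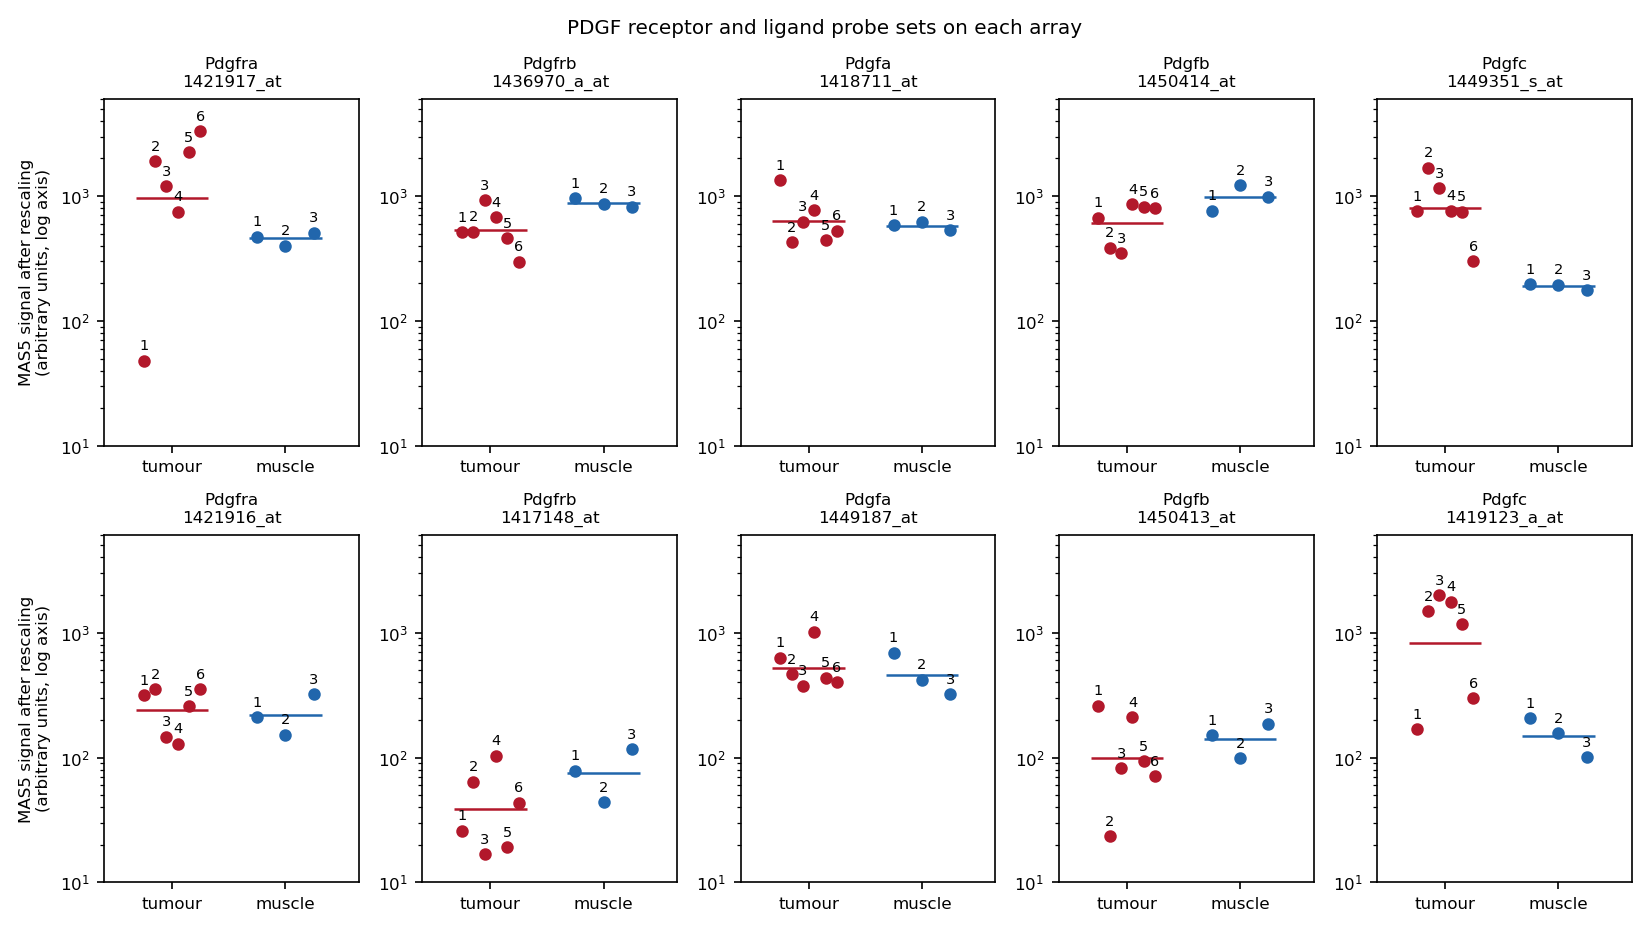
MAS5 signal of each member probe set after rescaling (log axis, arbitrary units) in 6 tumours (red, left) and 3 muscles (blue, right); numbers name the arrays, horizontal lines are back-transformed means of log2(signal + 16), and the upper row holds the probe set of each gene with the higher mean log2 level. In the upper row the 6 tumours lie above the 3 muscles for Pdgfc, and tumour 1 lies far below all other arrays for Pdgfra.

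Pdgfra encodes the receptor for the A and C ligands. The stretch of 250 bases before its annotated start is shown because its probe set 1421917_at varied most among the member probe sets. It lies at chr5:75152001-75152250 on the plus strand of GRCm38.p6, and capitals mark an E-box (CANNTG) and the letters TTTCCTG, which hold the core bound by ETS factors.
Pdgfra: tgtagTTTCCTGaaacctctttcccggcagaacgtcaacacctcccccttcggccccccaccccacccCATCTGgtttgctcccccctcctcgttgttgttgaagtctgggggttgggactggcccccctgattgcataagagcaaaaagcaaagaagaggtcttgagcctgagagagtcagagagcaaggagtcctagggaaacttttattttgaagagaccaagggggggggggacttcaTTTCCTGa
The E-box is found in 66.2% and TTTCCTG in 8.45% of 32536 such RefSeq windows, counting both strands. Further motifs were searched in the same way and not found in this window. They were ATTA (held by 54.8% of windows), the GC box GGGCGG (33.0%), the CCAAT box (33.8%), the letters TATAAA (12.3%), the AP-1 motif TGANTCA (6.73%), the E2F motif TTTCCCGC (0.901%) and the EGR motif GCGNGGGCG (4.74%), whose last letters can overlap a GC box. A match is a description of letters and not a binding site.

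The Pdgfra probe set with the higher mean level (1421917_at) gave signals of 48.1, 1894, 1200, 751, 2250 and 3308 in tumours 1 to 6, and of 474, 401 and 509 in muscles 1 to 3. Tumours 2 to 6 lay above every muscle, while tumour 1 lay below every muscle. The highest tumour was 68.8 times the lowest, whereas the highest muscle was 1.27 times the lowest. The standard deviation of the log2 level over the tumours was 2.06, and 0.499% of all probe sets had a larger one. The mean signal was 1575 ± 1159 over 6 tumours, against 461 ± 55.0 over 3 muscles (± SD). The difference was 1.04 ± 0.91 on the log2 scale (± SE), with a 95% interval of -0.91 to 2.98 and an adjusted p of 0.54, so the difference did not pass the test with all 6 tumours. Without tumour 1 the difference was 1.82 and the adjusted p 0.0079, and without tumours 1 and 4 they were 2.11 and 0.0014. On tumours 1 to 3 and the muscles the difference was 0.16 (adjusted p = 0.96), and without tumour 6 it was 0.68 (0.72). Over all 22 alternatives it ran from 0.16 to 2.11, and those 2 without tumour 1 were the only ones called. Tumour 1 stood apart as the lowest tumour, by a gap above Dixon's critical value for 6 samples, for 2.40% of 16350 probe sets whose highest tumour signal was above the median of all signals. The share was 2.21% for tumour 2 and at most 0.22% for each of the other tumours. As the highest tumour, tumour 1 stood apart by such a gap for 1.90% of these probe sets, and every other tumour for at most 0.37%.

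The second Pdgfra probe set (1421916_at) did not show this pattern. Its signals were 315, 352, 147, 128, 256 and 351 in tumours 1 to 6, and 211, 153 and 320 in muscles 1 to 3. The groups overlapped, and tumour 1 was among the higher tumours. Its difference was 0.13 ± 0.45 (log2 ± SE), with a 95% interval of -0.82 to 1.09. Both probe sets carry the same sequence accession in the platform annotation, and which parts of the transcript they read was not examined. The spread over tumours described for Pdgfra therefore rests on 1 of its 2 probe sets.

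Among genes that neighbour Pdgfra in RefSeq's gene order on chromosome 5, Chic2 shared the order of its tumours. Chic2, which lies 2 protein-coding genes before Pdgfra, had signals of 591, 2066, 1200, 865, 2128 and 3123 in tumours 1 to 6, and of 644, 1012 and 901 in muscles 1 to 3. In both genes the order from low to high was tumour 1, 4, 3, 2, 5 and 6, which held for 44 of 12392 other genes (0.355%). Chic2 and the other neighbours given here were named after their values were seen. Fip1l1, Tmem165, Clock and Exoc1 also had their lowest tumour signals in tumour 1, at 189, 754, 70.9 and 188. Gsx2, a homeobox gene between Chic2 and Pdgfra, and Lnx1, just before Chic2, instead had their highest tumour signals in tumour 1, at 248 and 518. So did Srd5a3, Pdcl2 and Nmu, which lie after Kdr, at 374, 77.7 and 85.1. The receptor tyrosine kinase genes Kit and Kdr, the next 2 protein-coding genes after Pdgfra, did not follow it. Kit had signals of 176, 111, 322, 172, 185 and 214 in tumours 1 to 6, and Kdr had its lowest tumour signal, 313, in tumour 6.

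Markers of fibroblasts and mesenchymal progenitors, cells that express Pdgfra in muscle, were measured beside it. The summed signal of 14 such markers was 24230, 67163, 50213, 20803, 15402 and 11134 in tumours 1 to 6, and 39538, 44165 and 43451 in muscles 1 to 3. Tumour 6 had the highest Pdgfra signal and the lowest fibroblast sum. In tumour 1 the collagen gene Col1a2 alone made 9062 of the sum, while Cd34, Fap, Lum and Col3a1 had their lowest tumour signal there, as Pdgfra did. Col5a1, Thy1 and Pi16 instead had their highest tumour signal in tumour 1, at 3967, 1303 and 442, so the markers did not move together there. Of the 14 markers 2 were called lower in tumours, Dpt (dermatopontin) by -2.32 and Lum (lumican) by -1.83 on the log2 scale, and 12 were not called. Among all genes 8.77% were called lower. Without the rescaling neither of the 2 was called, and 1 of the 14 markers was called higher. Over all alternatives Lum lost its call in 12 of 22 and Dpt in 3 of 22. The part of these cells in the Pdgfra values was not tested.

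**Figure D2:**
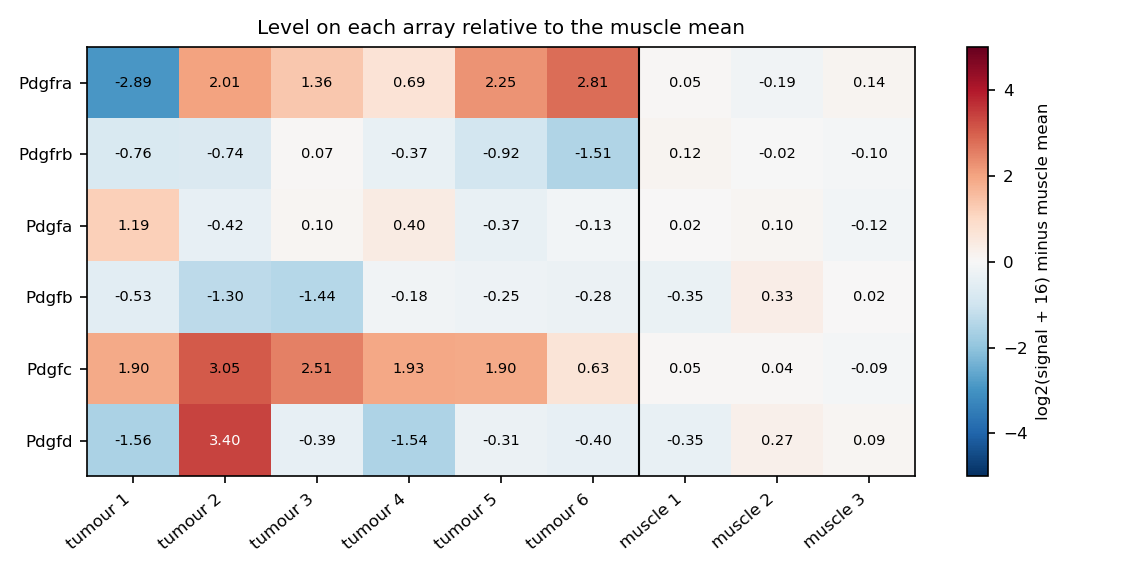
Log2(signal + 16) of the probe set with the higher mean level of each gene on every array, minus the mean of the 3 muscles (colour and printed value), with 6 tumours left of 3 muscles. Pdgfra runs from -2.89 in tumour 1 to 2.81 in tumour 6, Pdgfc is above 0 in all 6 tumours, and Pdgfd is far above 0 in tumour 2 alone.

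Pdgfrb encodes the receptor for the B and D ligands and marks pericytes and other mural cells. Its probe set with the higher mean level (1436970_a_at) gave signals of 516, 521, 926, 679, 459 and 299 in tumours 1 to 6, and of 960, 867 and 822 in muscles 1 to 3. All tumours but tumour 3 lay below every muscle, and tumour 3 lay within the range of the muscles. The mean signal was 567 ± 214 over 6 tumours, against 883 ± 70.7 over 3 muscles (± SD). The difference of -0.70 ± 0.36 (log2 ± SE) did not pass the test, with a 95% interval of -1.48 to 0.07 and an adjusted p of 0.24. Without the rescaling of the 2 muscle arrays its sign turned, to 0.13. The other Pdgfrb probe set (1417148_at) was dim on every array, from 16.8 to 103 in tumours and from 43.8 to 117 in muscles, and differed by -0.73 ± 0.49.

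Pericyte and smooth muscle markers were measured beside Pdgfrb. Of 12 such genes 5 were lower in tumours and 7 were not called, among a background of 8.77% of genes called lower. Rgs5, a regulator of G-protein signalling typical of pericytes, averaged 739 ± 255 across the 6 tumours, against 6175 ± 1430 across the 3 muscles (± SD), a difference of -3.09 ± 0.38. Abcc9, the sulfonylurea receptor subunit of a potassium channel, differed by -3.30 ± 0.44. Kcnj8, a subunit of that channel, Mcam and Lmod1 were the others called lower, and no marker was at 0 on any array. Without the rescaling only Rgs5 and Abcc9 were called. The summed signal of the 12 ran from 3782 to 18782 in tumours and from 13606 to 14360 in muscles. The smooth muscle genes Acta2 and Tagln, with signals of 12890 and 3850, made most of the sum of tumour 2. The part of mural cells in the Pdgfrb values was not tested. Csf1r, the receptor of macrophage colony-stimulating factor, is a related receptor gene and the next one after Pdgfrb in RefSeq's order. Its signals were 26580, 9006, 13300, 6318, 8195 and 4091 in tumours 1 to 6, and 1891, 1228 and 1408 in muscles 1 to 3, a difference of 2.64 ± 0.50 with an adjusted p of 0.0023.

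Pdgfc encodes a ligand that is secreted in a latent form and released by proteolytic removal of its CUB domain. It was the only member called. The 250 bases before its annotated start are shown as those of the called ligand, at chr3:81036166-81036415 on the plus strand of GRCm38.p6. None of the 9 motifs searched was found there, so no letter is in capitals, and nothing follows from that about the factors.
Pdgfc: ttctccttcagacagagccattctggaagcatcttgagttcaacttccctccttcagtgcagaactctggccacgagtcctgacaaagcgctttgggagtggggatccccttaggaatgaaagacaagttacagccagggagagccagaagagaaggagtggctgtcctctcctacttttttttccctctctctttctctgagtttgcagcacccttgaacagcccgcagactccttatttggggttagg
The Pdgfc probe set with the higher mean level (1449351_s_at) gave signals of 753, 1682, 1153, 764, 749 and 302 in tumours 1 to 6, and of 197, 195 and 177 in muscles 1 to 3. All 6 tumours lay above all 3 muscles, which occurred in one or the other direction for 19.8% of all probe sets. The muscles lay close together, while tumour 2 was 5.57 times tumour 6. The mean signal was 900 ± 468 over 6 tumours, against 190 ± 11.2 over 3 muscles (± SD). The difference was 1.99 ± 0.45 (log2 ± SE), or 3.96-fold, with a 95% interval of 1.02 to 2.95 and an adjusted p of 0.0078. An exact permutation test over the 84 splits of the arrays gave a two-sided p of 0.012, the smallest it can give. It was called under every alternative run except the exact rank-sum test, which called 0 probe sets after adjustment.

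The other Pdgfc probe set (1419123_a_at) gave signals of 169, 1487, 1997, 1767, 1166 and 299 in tumours 1 to 6, and of 206, 156 and 100 in muscles 1 to 3. Tumours 2 to 6 lay above every muscle, and tumour 1 lay within the muscles' range. Its difference was 2.37 ± 0.69 (log2 ± SE), or 5.15-fold, with an adjusted p of 0.031. The call for 1419123_a_at was lost in 12 of 21 alternatives, among them quantile normalization (adjusted p = 0.076), median centring (0.077) and leaving out any 1 muscle (0.063 to 0.15). Tumours were higher in all 21. Tumour 6 was low for both probe sets, whereas tumour 1 was low for this one only.

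**Figure D3:**
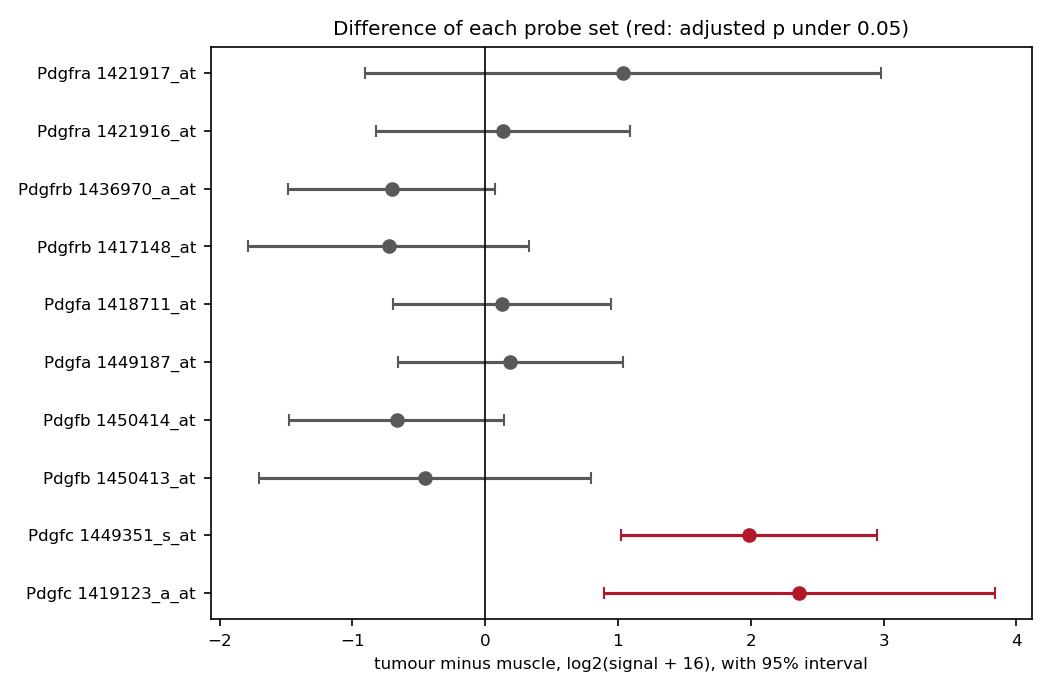
Tumour minus muscle difference of log2(signal + 16) for the 10 member probe sets, with 95% intervals from limma; red marks an adjusted p under 0.05. The intervals of the 2 Pdgfc probe sets lie above 0 and those of the other 8 include 0.

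Macrophages are a known source of PDGF ligands, and their markers were measured beside Pdgfc. Of 12 macrophage markers 8 were higher in tumours and 4 were not called, against 8.40% of all genes called higher. C1qa, a chain of complement C1q, averaged 1548 ± 748 across the 6 tumours, against 43.0 ± 11.6 across the 3 muscles (± SD). C1qc, another chain of the same protein, differed by 3.67 ± 0.43 on the log2 scale. Itgam, an integrin subunit of myeloid cells, had the opposite sign at -1.01 ± 0.59 and was not called. Without tumours 1 and 4 the counts were 8 higher and 1 lower, Itgam. The summed signal of the 12 was 41979, 23240, 29043, 19582, 20796 and 10214 in tumours 1 to 6, and 5059, 3546 and 3779 in muscles 1 to 3. No marker was at 0 on any array. Tumour 6 had the lowest macrophage sum among tumours and the lowest signal of 1449351_s_at. Other tumours did not follow this order. Tumour 2, highest for 1449351_s_at, had a lower macrophage sum than tumours 1 and 3. Tumour 1, with the highest sum, had the lowest tumour signal of 1419123_a_at, 169. Csf1r alone made 26580 of the sum of tumour 1. The part of these cells in the Pdgfc values was not tested.

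Pdgfa encodes the A chain, a ligand of PDGFRA. The transcription factor EGR1 is known to act on GC-rich sequence of the PDGF-A promoter in vascular endothelial cells, so the window of one of its 2 annotated starts is shown. It lies at chr5:138994945-138995194 on the minus strand of GRCm38.p6, and capitals mark 2 GC boxes, read here as CCGCCC, a motif that 33.0% of the windows hold.
Pdgfa: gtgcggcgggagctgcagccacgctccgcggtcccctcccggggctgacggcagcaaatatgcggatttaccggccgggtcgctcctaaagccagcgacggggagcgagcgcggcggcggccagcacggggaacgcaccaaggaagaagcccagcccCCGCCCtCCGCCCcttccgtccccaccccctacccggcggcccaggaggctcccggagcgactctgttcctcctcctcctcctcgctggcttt
This window had 72.4% G and C bases, and 93.5% of all windows had fewer. The EGR letters GCGNGGGCG, held by 4.74% of windows, were not found in it. The window of the other start, at chr5:138994282-138994531, is not shown. It held 1 GC box and 1 match to the E2F motif, which 0.901% of windows hold, and no EGR match. Egr1 itself was called higher in tumours, by 1.92 ± 0.42 (log2 ± SE), a call lost in 4 of 22 alternatives, among them leaving out muscle 3 (adjusted p = 0.055).

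Pdgfa did not differ between the groups beyond its error. The probe set with the higher mean level (1418711_at) gave signals of 1347, 430, 625, 768, 446 and 527 in tumours 1 to 6, and of 587, 625 and 532 in muscles 1 to 3. Tumour 1 was highest, and the muscles lay in the middle of the tumours. The difference was 0.13 ± 0.38 (log2 ± SE), with a 95% interval of -0.69 to 0.95 and an adjusted p of 0.89. The other probe set (1449187_at) ranged from 375 to 1016 in tumours, with tumour 4 highest, and from 320 to 690 in muscles. Its difference was 0.19 ± 0.40, with a 95% interval of -0.66 to 1.04.

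Pdgfb encodes the B chain, which endothelial cells and platelets release and which holds pericytes to vessels. Its probe set with the higher mean level (1450414_at) gave signals of 671, 386, 349, 861, 819 and 799 in tumours 1 to 6, and of 765, 1229 and 988 in muscles 1 to 3. Tumours 1 to 3 lay below every muscle, and tumours 4 to 6 lay within the muscles' range. The difference was -0.66 ± 0.38 (log2 ± SE), with a 95% interval of -1.47 to 0.15 and an adjusted p of 0.29. The other probe set (1450413_at) ranged from 23.5 in tumour 2 to 260 in tumour 1 among tumours, and from 98.6 to 187 in muscles, and differed by -0.45 ± 0.58. Both signs turned without the rescaling, to 0.17 and 0.29. Among 12 endothelial markers 2 were called lower in tumours, Tek (the angiopoietin receptor) by -1.62 and Esam (an endothelial adhesion molecule) by -1.54, and 10 were not called. Among all genes 8.77% were called lower. The Tek call was lost in 6 and the Esam call in 4 of 22 alternatives. Their summed signal ran from 1585 to 3803 in tumours and from 4723 to 5323 in muscles, so that these groups did not overlap after the rescaling. Without their factors of 1.70 and 3.55, muscle 1 and muscle 3 would lie below the highest tumour sum. Without the rescaling 0 endothelial markers were called. Of 6 platelet and megakaryocyte markers 1, Pf4 (platelet factor 4), was called higher, by 1.58 ± 0.46, a call lost in 10 of 22 alternatives, among them quantile normalization, median centring and leaving out muscle 2 or muscle 3. The summed platelet signal ran from 1855 to 4545 in tumours and from 1449 to 1798 in muscles. The part of these cells in the Pdgfb values was not tested.

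Pdgfd, the fourth ligand gene, stood outside the listed members and had 1 probe set (1426319_at). Its signals were 8.50, 747, 39.2, 8.88, 42.5 and 38.7 in tumours 1 to 6, and 40.7, 71.2 and 61.0 in muscles 1 to 3. Tumour 2 lay far above the other 8 arrays, tumour 5 lay within the muscles' range, and tumours 1, 3, 4 and 6 lay below it. The difference between the groups was -0.14 ± 0.85 (log2 ± SE), with an adjusted p of 0.95. The 3 genes most alike to Pdgfd over the 6 tumours were Birc2, Il33 and Dcun1d5, by the root mean square difference of their centred log2 levels. Birc2 and Dcun1d5 are neighbours of Pdgfd on chromosome 9 in RefSeq's gene order.

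That observation was followed along the chromosome, after the values had been seen. Among 20 measured genes within 20 protein-coding genes of Pdgfd on either side, 6 were over 4-fold above the median of the other tumours in tumour 2, against 198 of all 12393 genes (1.60%). They were Casp12, Dcun1d5, Tmem123, Birc2, Birc3 and Yap1. Birc2 and Dcun1d5, which had prompted the search by their likeness to Pdgfd, are counted among these 6. Past the window on the side of Yap1, the measured genes examined, from Pgr to Med17, were not over 4-fold in tumour 2. The highest of them was Fam76b, at 2.79-fold. Birc2 and Birc3 encode the inhibitor of apoptosis proteins cIAP1 and cIAP2, and Yap1 encodes a transcriptional coactivator of the Hippo pathway. Yap1 had a signal of 20042 in tumour 2, between 903 and 5487 in the other tumours, and between 1378 and 1745 in muscles. Birc2 had a signal of 5275 in tumour 2, between 172 and 547 in the other tumours, and between 382 and 612 in muscles. Dcun1d5, a gene of the cullin neddylation machinery, had a signal of 12567 in tumour 2, between 216 and 1150 in the other tumours, and between 1079 and 1880 in muscles. The matrix metalloproteinase genes that lie between Dcun1d5 and Tmem123 were not over 4-fold in tumour 2. DNA copy number was not analysed here.

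**Figure D4:**
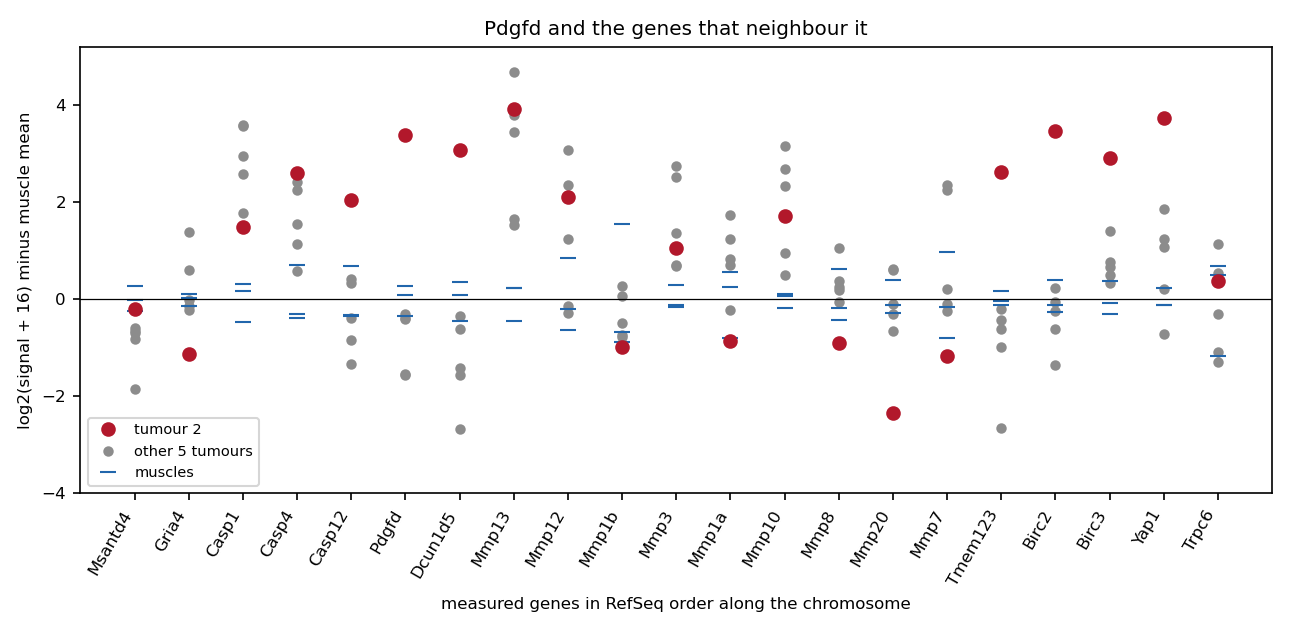
Log2(signal + 16) minus the mean of the 3 muscles for Pdgfd and its 20 measured neighbours in RefSeq order along chromosome 9, with tumour 2 in red, the other 5 tumours in grey and the muscles as blue dashes. Tumour 2 stands far above the other tumours at Casp12, Pdgfd, Dcun1d5, Tmem123, Birc2, Birc3 and Yap1, and close to, among or below them at the other 14.

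Patterns over the 6 tumours were compared between each member's probe set with the higher mean level and 9834 other genes. The 3 genes most alike to Pdgfra were Slc25a36, Tiprl and Tor4a, at root mean square differences of 0.41, 0.42 and 0.43 on the log2 scale, where Pdgfra itself varied by 1.88 about its mean. All 3 were lowest in tumour 1, at 26.8, 70.3 and 64.6. Slc25a36 had a signal of 1092 or more in the other tumours and of 1455 to 1867 in muscles. The 3 most alike to Pdgfc were Slc39a8, Stmn2 and Mtx2, at 0.22, 0.24 and 0.25, with Pdgfc varying by 0.74. Those most alike to Pdgfrb were Nedd4l, Ifnar1 and Capza1, those to Pdgfa were Kmt2c, Strada and Ihh, and those to Pdgfb were Irx1, Hexim1 and Sh3bp4, at differences between 0.050 and 0.15. These are the closest of many genes over 6 arrays and carry no test.

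Of 79 other genes around PDGF signalling 9 were higher and 7 lower in tumours, and 63 were not called. Among all genes 8.40% were called higher and 8.77% lower. Without the rescaling the counts were 20 higher and 3 lower, and with median centring 9 higher and 3 lower, so the balance of the 2 directions depends on the scaling. Lists are described below by the probe set of each gene with the highest mean level.

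Of 6 related receptors 1 was higher, Csf1r, and 5 were not called. Of 8 measured ligands of the PDGF and VEGF family and of related receptors 2 were lower and 6 were not called. Vegfb, a ligand of VEGF receptor 1, averaged 23.8 ± 19.0 across the 6 tumours, against 742 ± 185 across the 3 muscles (± SD), a difference of -4.32 ± 0.46. Vegfa, the main angiogenic VEGF, differed by -1.93 ± 0.59 with an adjusted p of 0.039. The Vegfa call was lost without the rescaling (0.20), under quantile normalization (0.062) and median centring (0.061), and without any 1 of the muscles (0.085 to 0.16), in all in 10 of 22 alternatives.

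Genes that process or bind the ligands did not pass the test. Of 11 measured, among them the convertase gene Furin, the plasminogen activator genes Plat and Plau and the binding protein gene Sparc, 0 were called by limma, and 0 had an unadjusted p under 0.05. The exact rank-sum test called 0, with 1 at an unadjusted p under 0.05. Plat encodes tissue plasminogen activator, which cleaves PDGF-C to its active form. It ranged from 315 to 2061 in tumours and averaged 311 ± 9.94 in muscles (SD, n = 3), a difference of 1.09 ± 0.54 with an adjusted p of 0.21.

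Among 25 genes of signalling below the receptor 1 was higher, 4 were lower and 20 were not called. Src, a cytoplasmic tyrosine kinase that binds activated PDGF receptors, averaged 712 ± 176 across the 6 tumours, against 155 ± 9.81 across the 3 muscles (± SD), a difference of 2.05 ± 0.34 with an adjusted p of 0.0010. Sos2, an exchange factor of RAS, averaged 234 ± 147 across the 6 tumours, against 2043 ± 568 across the 3 muscles (± SD), a difference of -3.29 ± 0.57. Stat5b, a transcription factor activated by cytokine receptors, differed by -2.68 ± 0.36. Gab1 and Akt2, an adaptor and a kinase of the PI3-kinase pathway, made up the other called genes, each by a call that was lost in 13 of 22 alternatives, the deposited scale and leaving out muscle 2 or muscle 3 among them.

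Of 13 negative regulators 3 were higher, 1 was lower and 9 were not called. Dusp6, a phosphatase of ERK kinases whose own transcript rises with ERK activity, averaged 1378 ± 702 across the 6 tumours, against 308 ± 55.5 across the 3 muscles (± SD), a difference of 1.97 ± 0.41 with an adjusted p of 0.0047. Errfi1, an inhibitor of EGF receptor kinases, differed by 2.33 ± 0.48. Ptpn1, which encodes the tyrosine phosphatase PTP1B, was the other gene called higher. Dusp1, another phosphatase of MAP kinases, differed by -2.03 ± 0.55, a call that was lost in 6 of 22 alternatives, among them without the rescaling (adjusted p = 0.17), with median centring (0.051) and without muscle 1 (0.064) or muscle 2 (0.14). Spry1, Spry2 and Spry4, the Sprouty inhibitors measured, were not called.

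Of 16 early genes that growth factors induce 4 were higher, 0 were lower and 12 were not called, with 0 lower also at an unadjusted p under 0.05. Fosl1, a subunit of the AP-1 factor, averaged 648 ± 199 across the 6 tumours, against 49.0 ± 14.3 across the 3 muscles (± SD), a difference of 3.32 ± 0.39 with an adjusted p of 9.7e-05. Myc differed by 2.01 ± 0.43, a call lost in 4 of 22 alternatives, leaving out muscle 3 among them (adjusted p = 0.053). Egr1 and Junb were the others, and the Junb call was lost in 9 of 21 alternatives, leaving out muscle 2 (adjusted p = 0.17) or muscle 3 (0.19) among them. Fos, Jun and Egr3 were not called, at differences of -0.86 ± 0.66, -0.17 ± 0.40 and -0.01 ± 0.67. Without the rescaling 7 of the 16 were called higher.

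**Figure D5:**
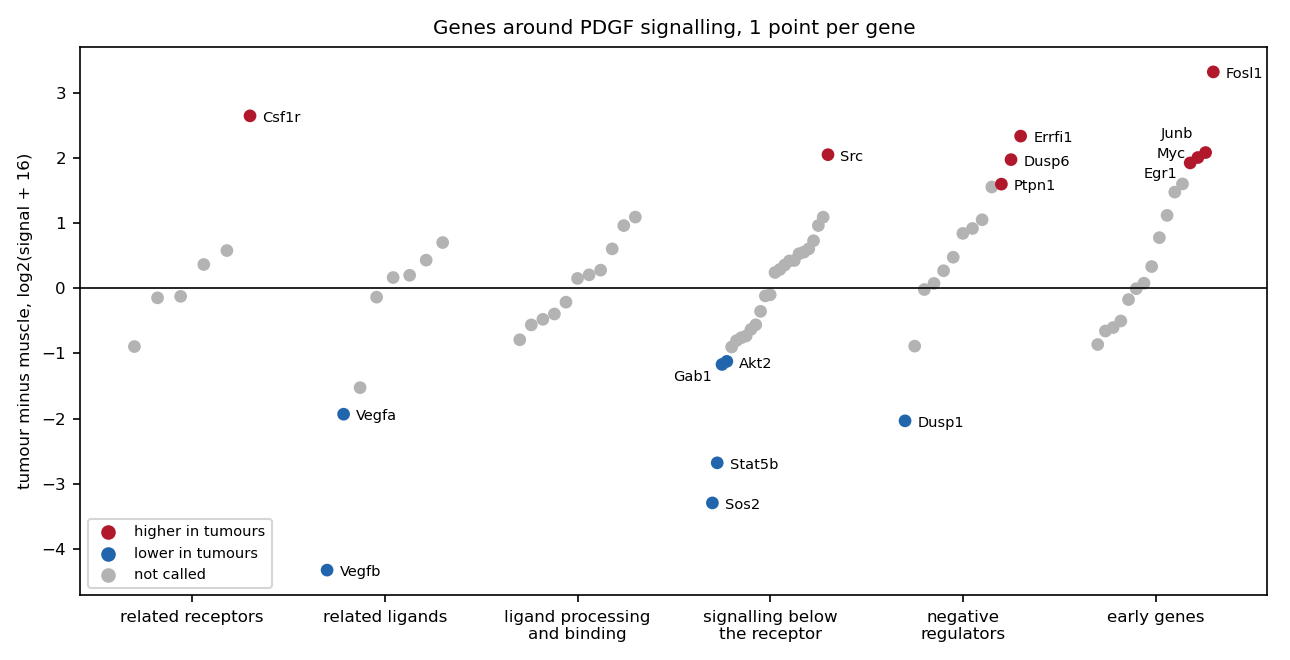
Tumour minus muscle difference of log2(signal + 16) for each measured gene of 6 lists around PDGF signalling, 1 point per gene; red and blue mark genes called higher and lower in tumours at an adjusted p under 0.05. Csf1r, Src, 3 negative regulators and 4 early genes lie high, and Vegfb, Vegfa, Sos2, Stat5b, Gab1, Akt2 and Dusp1 lie low.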

How the data were processed

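Per the labels' protocols, biotin-labelled total RNA (Trizol, RNAeasy) was hybridised to Affymetrix arrays. The authors deposited 1 linear intensity for each of 22690 probe sets on 9 arrays, made with MAS5 per the submitters' processing notes (version and scaling target not given in the sources used here). Detection calls were not used here. A dim signal may be background only, which makes its fold uncertain.

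Each array was multiplied to the median of the arrays' mean signals, trimmed by 2% at each end. The 64 Affymetrix controls were removed. Among the other 22626 probe sets, 20380 had 1 gene symbol, 691 several and 1555 none, and only the first were named. Tests used log2(signal + 16), limma 3.58.1 in R 4.3.3 (lmFit, eBayes with an intensity trend, no covariates) and Benjamini-Hochberg adjustment over all probe sets, with calls at an adjusted p under 0.05. A list gene was represented by its probe set with the highest mean log2 level. Each difference subtracts the muscle mean from the tumour mean of log2 values; its fold includes the offset and understates the change of a dim gene. Promoter windows are from RefSeq (GRCm38.p6), and those of Pdgfra, Pdgfc and Pdgfa are shown. The files name no build, so the RefSeq table served for gene order only. Summaries used Python 3.11.15, pandas 2.3.3 and scipy 1.17.1.

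Every member probe set is named, and for each member the 3 genes most alike over the tumours (smallest root mean square difference of centred log2 values, among genes with a tumour signal above the median of all signals). From each list up to 2 called genes a direction were named by adjusted p, with Pdgfd. Further list genes and the neighbours of Pdgfra and of Pdgfd were named after their values were seen. The members and lists were chosen with earlier results of these data known. Leaving out tumours 1 and 4 for the lists was added after seeing the data.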

Additional observations from a re-analysis of the deposited data

Results flagged for a closer look

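The Pdgfra signals of probe set 1421917_at held 1 tumour far from the other 5. The gap between tumour 1 (48.1) and the next lowest tumour (751) was 0.629 of the whole range of the 6 tumours on the log2 scale, just above Dixon's critical value for 6 samples. The signals of the 3 muscles ran from 401 to 509. Of the 10 member probe sets examined this was the only one past that value, and chance alone passes about 1 group in 20.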

How the results depend on the processing

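Pdgfc 1449351_s_at stayed higher and called in 21 of 22 alternatives, with differences of 1.77 to 2.73, and Pdgfc 1419123_a_at stayed higher in 21 of 21 but was called in 9. With quantile normalization, median centring, 1 probe set per gene, and tumours 1 to 3 against muscles 1 to 3, 1 member probe set was called higher; the exact rank-sum test called 0 of the 10 and 0 of all probe sets (2 and 5814 at an unadjusted p under 0.05; its smallest adjusted p is 0.12). Leaving out 1 array gave 1 to 3 member probe sets called higher and 1700 to 4369 probe sets in all, against 3488 with every array; 1983 were called without muscle 2, 1700 without muscle 3, 1799 on tumours 1 to 3 and the muscles, and 2200 with 1 probe set per gene. Member probe sets called lower were 0 throughout.

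Signs that turned were all of uncalled values. As deposited, Pdgfb 1450413_at, Pdgfb 1450414_at, Pdgfrb 1436970_a_at and Pdgfd differed by 0.29, 0.17, 0.13 and 0.44. Pdgfa 1418711_at differed by -0.031 as a difference of medians, -0.20 without tumours 1 and 4 and -0.084 without tumour 1, with a range of -0.084 to 0.24 over left-out arrays. Pdgfa 1449187_at differed by -0.12 without tumours 1 and 4, -0.0011 without tumour 4 and -0.053 without muscle 3, with a range of -0.053 to 0.48. Pdgfra 1421916_at differed by -0.032 with quantile normalization and -0.10 without muscle 2, with a range of -0.10 to 0.39. Pdgfd differed by 0.10 with an offset of 64, 0.48 on tumours 1 to 3 and the muscles, 0.57 without tumours 1 and 4, 0.15 without tumour 1 and 0.15 without tumour 4, with a range of -0.84 to 0.15.

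As deposited, 87.0% of called probe sets were higher, against 51.1% after rescaling; marker genes called were then 19 higher and 13 lower (11 and 21 after rescaling), and other pathway genes 20 higher and 3 lower (9 and 7; 3 lower also with median centring). Without tumours 1 and 4 the marker genes called were 12 higher and 24 lower and the pathway genes 10 higher and 6 lower. Whether the same replicate numbers pair the samples is not known. Deviations of same-numbered tumours and muscles correlated at 0.21, 0.19 and -0.02. Differently numbered ones were not compared, so these values cannot decide it. With replicate number as a block the count of member probe sets called higher was 1, as without it on the same 6 arrays. Over all probe sets 2432 were called with the block and 1799 without it. The limma adjusted p of Pdgfc 1419123_a_at was 0.052 with the block and 0.11 without it. The causes were not tested. Precision is limited by having 9 arrays.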

Other observations

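Markers of cells with no clear tie to the members were also measured. Of 5 adipocyte genes 4 were lower in tumours and 1 was not called. Adiponectin (Adipoq) averaged 22.4 ± 13.0 across the 6 tumours, against 2447 ± 724 across the 3 muscles (± SD), and lipoprotein lipase (Lpl) differed by -3.89 ± 0.64 on the log2 scale. Of 4 Schwann cell genes 1 was lower, Mbp (myelin basic protein), by -2.04 ± 0.57, a call lost in 5 of 22 alternatives. Of 10 genes of the myogenic lineage and its tumours 2 were higher, Ncam1 and Myh3, and 8 were not called. Myh3, the embryonic myosin heavy chain, differed by 2.58 ± 0.79 with an adjusted p of 0.041, a call lost in 10 of 22 alternatives. Ckmt2 and Pvalb, adult muscle genes, differed by -7.47 ± 0.43 and -6.41 ± 0.91.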
